A study of Mus musculus with 10 samples.

Results

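The voltage-gated sodium and calcium channel subunits of the mouse cortex were taken as every gene whose array symbol starts with Scn and a digit, or with Cacn. Of 18193 genes read by a probe set that names them alone, 35 met this rule, namely 11 sodium channel and 24 calcium channel genes. They were read by 85 of 45101 probe sets, with 1 to 5 probe sets each, and the brightest probe set stood for the gene. *Scn4a*, *Cacna1i* and *Cacnb3* were not analysed here. The arrays hold cortical RNA of adult female mice of strain C57BL/6N, 2 months old, with 5 WT mice and 5 littermates that lack *Crtc1* (*Crtc1*-/-), 1 mouse per array. No treatment was given to either group. *Crtc1* encodes a coactivator of the transcription factor CREB, and the question put to the arrays was which transcripts differ when it is missing constitutively. Values are on the log2 scale, a log2 fold change is *Crtc1*-/- minus WT, and an adjusted p under 0.05 from limma, corrected over all genes, was called a change.

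Sodium channels open when a neuron is depolarized and carry the rising phase of the action potential. Each has 1 large pore-forming alpha subunit (such as *Scn1a* or *Scn2a*) and beta subunits (such as *Scn2b* or *Scn4b*) that tune its gating and anchor it at the membrane. Calcium channels turn the depolarization into calcium entry, which drives transmitter release, dendritic signalling and transcription. They are built from a pore (*Cacna1* genes) and the accessory alpha2delta, beta and gamma subunits (*Cacna2d*, *Cacnb* and *Cacng* genes). Several gamma subunits are better known as auxiliary proteins of AMPA-type glutamate receptors. *Scn7a* stands apart in the sodium family: its product, Nax, is not opened by voltage as its relatives are, and it is known for sensing extracellular sodium in glia of the circumventricular organs.

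*Crtc1* itself read 9.86, 9.84, 9.64, 9.51 and 9.62 in WT mice and 6.28, 6.58, 6.47, 5.96 and 6.60 in *Crtc1*-/- mice, which fits the labels of all 10 arrays. Any pair of arrays correlated at 0.994 to 0.998 over probe sets, and array medians differed by at most 0.03. The neuronal markers were bright, and the mean of 8 of them lay between 11.86 and 11.91 in WT and between 11.82 and 11.88 in *Crtc1*-/- mice. The RNA came from bulk tissue, where a change in the number of cells of one type and a change of RNA per cell cannot be told apart.

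Of the 35 channel subunits, *Scn7a* and *Scn4b* rose in *Crtc1*-/- cortex, none fell and 33 did not pass. Over all genes 0.308% rose and 0.456% fell. Without correction, 3 subunits were lower and 3 were higher at a p under 0.05, where 5.53% of all genes were lower and 4.33% higher. The *Crtc1*-/- and WT arrays did not overlap in 3 of the 35 (*Scn7a*, *Scn4b* and *Cacna1g*), where 3.14% of all genes did not overlap. The median log2 fold change of the 35 was -0.01, against -0.0030 over all genes. In 27 of the 35 the log2 fold change was within 0.1 of 0, as it was in 78% of all genes. Over single probe sets, 2 of the 85 rose and none fell, where 0.115% of all probe sets rose and 0.187% fell. Both were probe sets of *Scn7a*, and the probe set of *Scn4b* did not pass there (adjusted p = 0.0596 over probe sets from limma).

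*Scn7a*, the gene of the sodium sensor Nax, read 5.04, 5.08, 5.01, 5.50 and 5.33 in WT mice. In *Crtc1*-/- mice it read 6.13, 5.72, 5.97, 6.12 and 5.93. The lowest *Crtc1*-/- mouse thus lay above the highest WT mouse, by less than the range within either group. The means were 5.19 ± 0.22 in WT and 5.97 ± 0.17 in *Crtc1*-/- mice (SD, n = 5 each), and the 1.72-fold increase had a 95% confidence interval of 1.46 to 2.02 (adjusted p = 0.00447 from limma). The two-sided exact permutation test gave p = 0.00794, the smallest that 5 arrays against 5 allow. That this gene was higher was known from earlier results of these data. It was of middling brightness, at the percentile 53.2 of all probe sets.

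The other *Scn7a* probe sets were not used to stand for the gene. Probe set 1436044_at, annotated to the same sequence accession as the reported 1436043_at, read 4.99 ± 0.13 in WT and 5.64 ± 0.06 in *Crtc1*-/- mice (SD, n = 5 each), which was 0.65 higher (standard error 0.07, adjusted p = 0.00118 over probe sets by limma). Its groups did not overlap. The dim probe set 1427495_at, annotated to another sequence, read 3.89 ± 0.16 and 4.17 ± 0.16, a difference of 0.29 that did not pass (adjusted p = 0.420 over probe sets from limma) and whose groups overlapped.

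**Figure D1:**
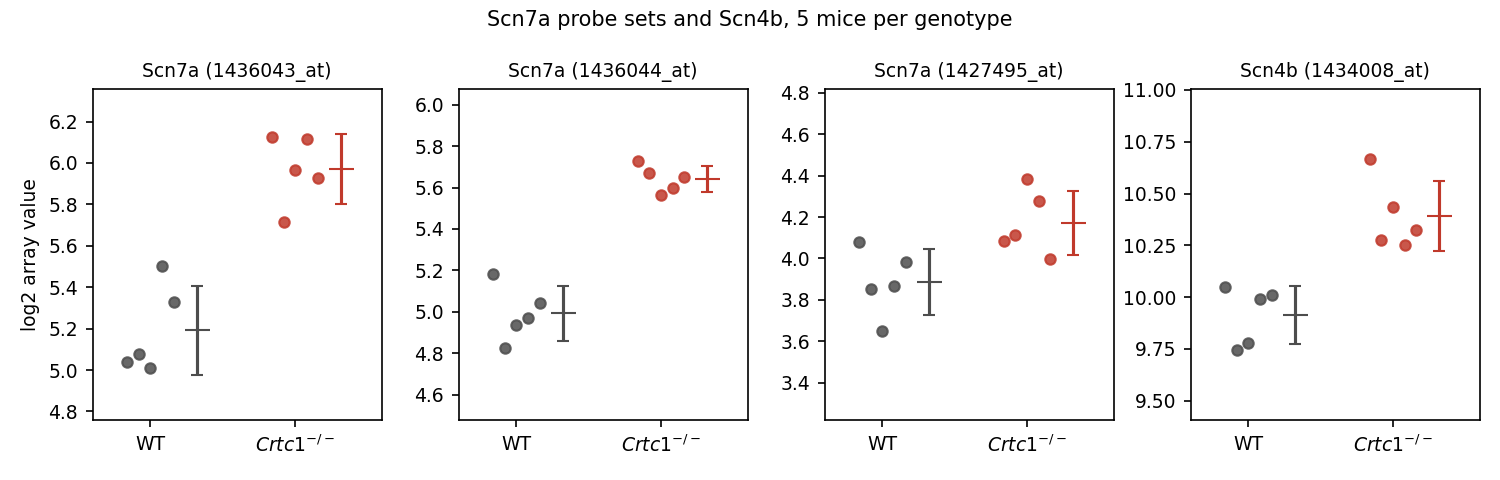
Log2 array values (y axis) of the 3 *Scn7a* probe sets and of *Scn4b* in 5 WT and 5 *Crtc1*-/- mice, with a point for each mouse and bars for the mean ± SD of a group. Each y axis spans 1.6 and starts above 0. The groups are apart at 1436043_at, 1436044_at and *Scn4b* and overlap at 1427495_at.

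The call of *Scn7a* held with any of the 10 arrays left out (log2 fold change 0.73 to 0.86, adjusted p from 0.00273 to 0.0171). It was lost without moderation of the variances (adjusted p = 0.0515) and when the mean of oligodendrocyte or of hippocampal markers was a covariate, which gave 0.68 (adjusted p = 0.117) and 0.75 (adjusted p = 0.270). Several marker lists shifted alongside. Each of the 9 oligodendrocyte markers read here was above 0, with none passing, and their mean level ran from 10.36 to 10.68 in WT and from 10.59 to 10.92 in *Crtc1*-/- mice. All 8 astrocyte markers were above 0 as well, with none passing, at 10.47 to 10.66 and 10.62 to 10.71. Of 9 measured hippocampal markers 1 fell and 6 were below 0, and their mean level was 5.16 to 5.40 in WT and 4.99 to 5.18 in *Crtc1*-/- mice. Of 7 markers of the claustrum and layer 6b, *Gnb4* fell and 5 were below 0, with a mean level of 6.67 to 6.79 in WT and 6.44 to 6.64 in *Crtc1*-/- mice. Over all genes, 8800 of 18193 were above 0. At an uncorrected p under 0.05 in limma, 4 of 9 oligodendrocyte markers and 1 of 8 astrocyte markers were higher, against 4.33% of all genes. At the same level 5 of 9 hippocampal markers and 2 of 7 of the claustrum and layer 6b were lower, against 5.53% of all genes. Astrocyte markers and those of the claustrum and layer 6b were not used as covariates. Both covariates themselves shifted with the genotype, so these fits cannot tell the part of such cells from that of the genotype. Over all genes, 83 lower and 56 higher became 26 and 16 with the oligodendrocyte covariate and 10 and 5 with the hippocampal covariate. The part of any of these cells in the *Scn7a* result was not tested.

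The neuronal sodium channel pores did not share the rise of *Scn7a*. *Scn2a* (Nav1.2), a main pore of cortical pyramidal neurons, read 11.52, 11.52, 11.60, 11.60 and 11.55 in WT and 11.54, 11.54, 11.52, 11.55 and 11.59 in *Crtc1*-/- mice. These groups overlap almost fully, and the 95% confidence interval of its fold spanned 0.940 to 1.05. *Scn8a* (Nav1.6), the pore that is dense at the axon initial segment, read 11.15 ± 0.08 and 11.15 ± 0.08 (SD, n = 5 each), with an interval of 0.918 to 1.08. *Scn3a* (Nav1.3), a pore of the developing brain, read 7.82 ± 0.04 and 7.79 ± 0.09, with an interval of 0.906 to 1.05. *Scn1a* (Nav1.1), the pore of fast-spiking interneurons, read 10.29 ± 0.14 and 10.38 ± 0.10, with an interval of 0.952 to 1.18. None of these 4 passed (adjusted p from 0.804 to 0.983 from limma), and none had an uncorrected p under 0.05.

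The change of *Scn7a* was set against that of each neuronal pore within the same array, which removes a shift shared by the probe sets of an array. It does not adjust for *Scn7a* being dimmer than the neuronal pores. The change of *Scn7a* exceeded that of *Scn1a* by 0.69 (95% confidence interval 0.36 to 1.03) and that of *Scn2a* by 0.79 (0.52 to 1.06). It exceeded that of *Scn3a* by 0.81 (0.55 to 1.08) and that of *Scn8a* by 0.79 (0.47 to 1.10). Each of the 4 comparisons gave p = 0.00794 in a two-sided exact permutation test, which is also the Benjamini-Hochberg value over the 4 and the smallest possible. All 4 reuse the same *Scn7a* values, which were known beforehand to be higher. The 4 tests are therefore not independent and add no separate support for the rise of *Scn7a*. When a gene's probe sets were averaged, the difference to *Scn1a* was 0.40 and no longer passed (permutation test, adjusted p = 0.0714), and the other 3 differences passed. The dimmer *Scn1a* probe sets 1450120_at and 1441728_at had log2 fold changes of 0.21 each, without passing.

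**Figure D2:**
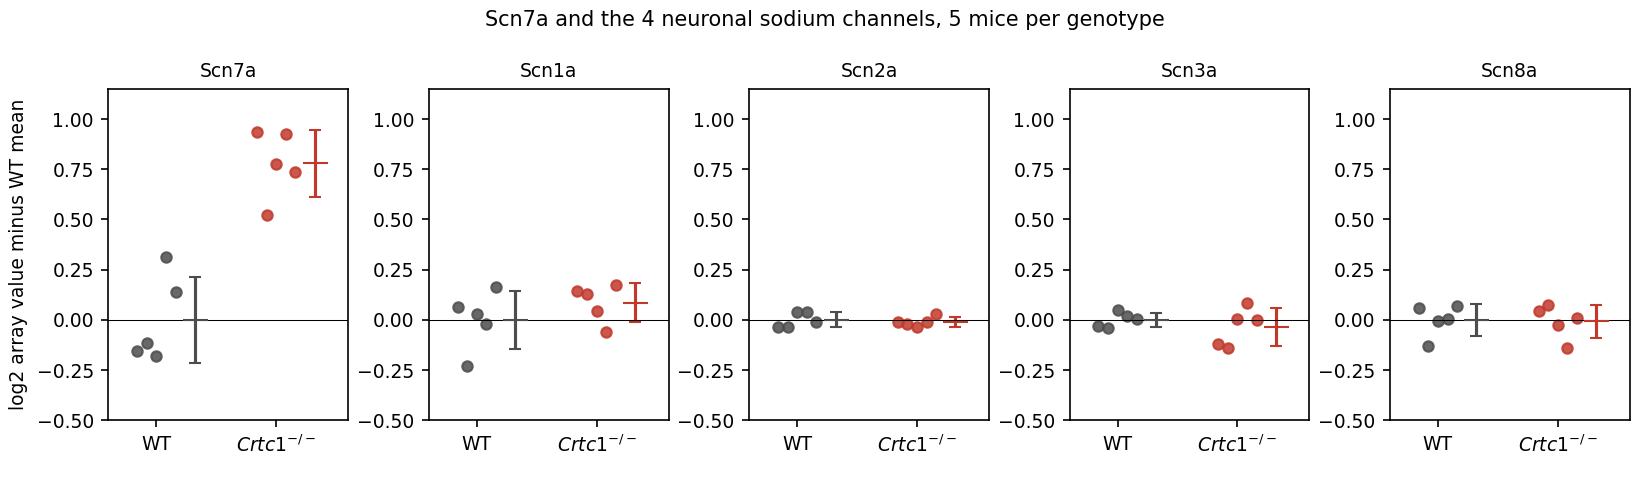
Log2 array value minus the WT mean of the gene (y axis, shared by the panels) for *Scn7a*, *Scn1a*, *Scn2a*, *Scn3a* and *Scn8a*, with a point for each of 5 WT and 5 *Crtc1*-/- mice and bars for the mean ± SD. The *Crtc1*-/- mice lie above all WT mice for *Scn7a*, and the groups overlap for the other 4 genes.

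*Scn7a*, *Scn9a*, *Scn1a*, *Scn2a* and *Scn3a* lie in one stretch of chromosome 2. Among the 5 measured genes on each side of *Scn7a* in the gene order of GRCm38.p6, none passed (log2 fold change from -0.25 to 0.29, 0 called of 10 by limma), and 1, *Cers6*, had groups that did not overlap (-0.20, adjusted p = 0.139). *Scn9a* (Nav1.7), the pore of pain-sensing neurons and the measured gene next to *Scn7a*, was dim and had a log2 fold change of -0.02 (standard error 0.05). The other pores of sensory neurons, *Scn10a* and *Scn11a*, were also dim, at -0.06 and -0.09, with no call.

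Among the sodium channel beta subunits *Scn4b* rose. Its protein, beta4, is known for its part in the resurgent current of fast-firing neurons. It read 10.05, 9.74, 9.78, 9.99 and 10.01 in WT mice and 10.67, 10.27, 10.43, 10.25 and 10.32 in *Crtc1*-/- mice. The groups were apart, with *Crtc1*-/- replicate 1 the highest. The means were 9.91 ± 0.14 and 10.39 ± 0.17 (SD, n = 5 each), a 1.39-fold increase (95% confidence interval 1.22 to 1.59, adjusted p = 0.0295 from limma, exact permutation test p = 0.00794). It was the gene's only probe set.

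The call of *Scn4b* was lost in 10 of 22 alternatives. It missed at adjusted p = 0.0596 over all probe sets and 0.0549 with the replicate number as a block. When WT replicate 2, 3 or 4 or *Crtc1*-/- replicate 3 or 5 was left out, it missed at 0.0564 to 0.0817. It was also lost without moderation of the variances (adjusted p = 0.124) and with the oligodendrocyte marker mean as covariate (adjusted p = 0.357). With the hippocampal marker mean as covariate its log2 fold change was 0.23 instead of 0.48 (adjusted p = 0.765). *Scn4b* is abundant in the striatum, and of 6 measured striatal markers none passed and 3 were above 0. Their mean level was 7.35 to 8.01 in WT and 7.48 to 7.79 in *Crtc1*-/- mice. The largest difference among the 6 was that of *Pde10a*, which was lower at -0.44 (adjusted p = 0.151 from limma). *Scn2b*, the next measured gene on chromosome 9 and the gene of beta2, read 11.38 ± 0.02 and 11.36 ± 0.03 (SD, n = 5 each), a fold of 0.988 (0.936 to 1.04). *Scn3b*, the gene of beta3, had a log2 fold change of -0.02 with a wider interval of -0.20 to 0.16.

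Because *Crtc1* works through CREB, the bases before the start sites of the subunits that rose are shown. They are the 250 bases upstream in RefSeq's annotation of GRCm38.p6, 5′ to 3′ on the strand of the gene, with CG pairs in capitals. For *Scn7a* this is chr2:66784911-66785160 on the minus strand and for *Scn4b* chr9:45138374-45138623 on the plus strand.
Scn7a: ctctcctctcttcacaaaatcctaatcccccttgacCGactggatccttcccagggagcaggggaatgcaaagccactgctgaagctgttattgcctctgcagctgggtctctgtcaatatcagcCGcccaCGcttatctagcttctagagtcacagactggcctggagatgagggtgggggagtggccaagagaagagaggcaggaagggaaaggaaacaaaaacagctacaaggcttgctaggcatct
Scn4b: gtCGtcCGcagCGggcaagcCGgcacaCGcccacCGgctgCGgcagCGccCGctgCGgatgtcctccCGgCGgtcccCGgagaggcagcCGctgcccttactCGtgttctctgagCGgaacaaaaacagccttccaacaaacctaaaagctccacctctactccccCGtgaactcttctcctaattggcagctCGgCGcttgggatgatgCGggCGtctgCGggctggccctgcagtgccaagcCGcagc
The *Scn7a* window held 3 CG pairs and the *Scn4b* window 23. Of 32851 upstream windows of this length, 29.0% held fewer than *Scn7a* and 86.7% fewer than *Scn4b*. Neither window held the palindromic CREB site TGACGTCA, which 1.55% of all windows hold, or its half-site TGACG on either strand, which 17.8% hold and which each full site contains. Promoter windows were listed for 27 of the 35 subunits, 37 windows in all. None of the 37 held the full site and 5 held the half-site, those of *Cacna1b*, *Cacna1c*, *Cacna2d1*, *Cacnb2* and *Scn10a*, where no gene passed.

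Among 9 calcium channel pores none passed in limma, 1 had an uncorrected p under 0.05, and the median log2 fold change was 0.02 (from -0.27 to 0.10). *Cacna1g* (Cav3.1), the low-threshold T-type pore that supports burst firing, read 8.69, 8.54, 8.62, 8.51 and 8.52 in WT mice and 8.40, 8.42, 8.29, 8.12 and 8.31 in *Crtc1*-/- mice. Even the highest *Crtc1*-/- mouse lay under the lowest WT mouse, and replicate 4 was the lowest. Only 1 probe set read *Cacna1g*. The log2 fold change was -0.27, a fold of 0.831 (95% confidence interval 0.757 to 0.914), and the adjusted p was 0.0958 from limma. With a trended and robust variance prior it passed (adjusted p = 0.0324), and in the other 21 alternatives it did not. The other T-type pore read here, *Cacna1h* (Cav3.2), had a log2 fold change of -0.04 and the interval of its fold was 0.894 to 1.05. The 5 measured genes on each side of *Cacna1g* on chromosome 11 had log2 fold changes from -0.10 to 0.12, with none called.

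The pores of transmitter release and of dendritic calcium entry had small differences, and none passed. *Cacna1a* (Cav2.1, P/Q-type) lies on chromosome 8 as *Crtc1* does, 131 measured genes away, and read 8.15 ± 0.10 in WT and 8.19 ± 0.09 in *Crtc1*-/- mice (SD, n = 5 each). *Cacna1b* (Cav2.2, N-type) read 9.42 ± 0.19 and 9.53 ± 0.13, and all 4 of its probe sets were above 0 by 0.0070 to 0.10. *Cacna1e* (Cav2.3, R-type) had a log2 fold change of -0.03 (standard error 0.05). The L-type pores of neurons, *Cacna1c* (Cav1.2) and *Cacna1d* (Cav1.3), differed by -0.02 and 0.02. For *Cacna1d* the dimmer probe set 1428051_a_at read 4.70 ± 0.08 in WT and 4.47 ± 0.18 in *Crtc1*-/- mice (log2 fold change -0.23, adjusted p = 0.534 over probe sets from limma), unlike the reported 1427974_s_at. *Cacna1s* and *Cacna1f*, pores of skeletal muscle and of the retina, were dim and differed by 0.02 and 0.06.

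**Figure D3:**
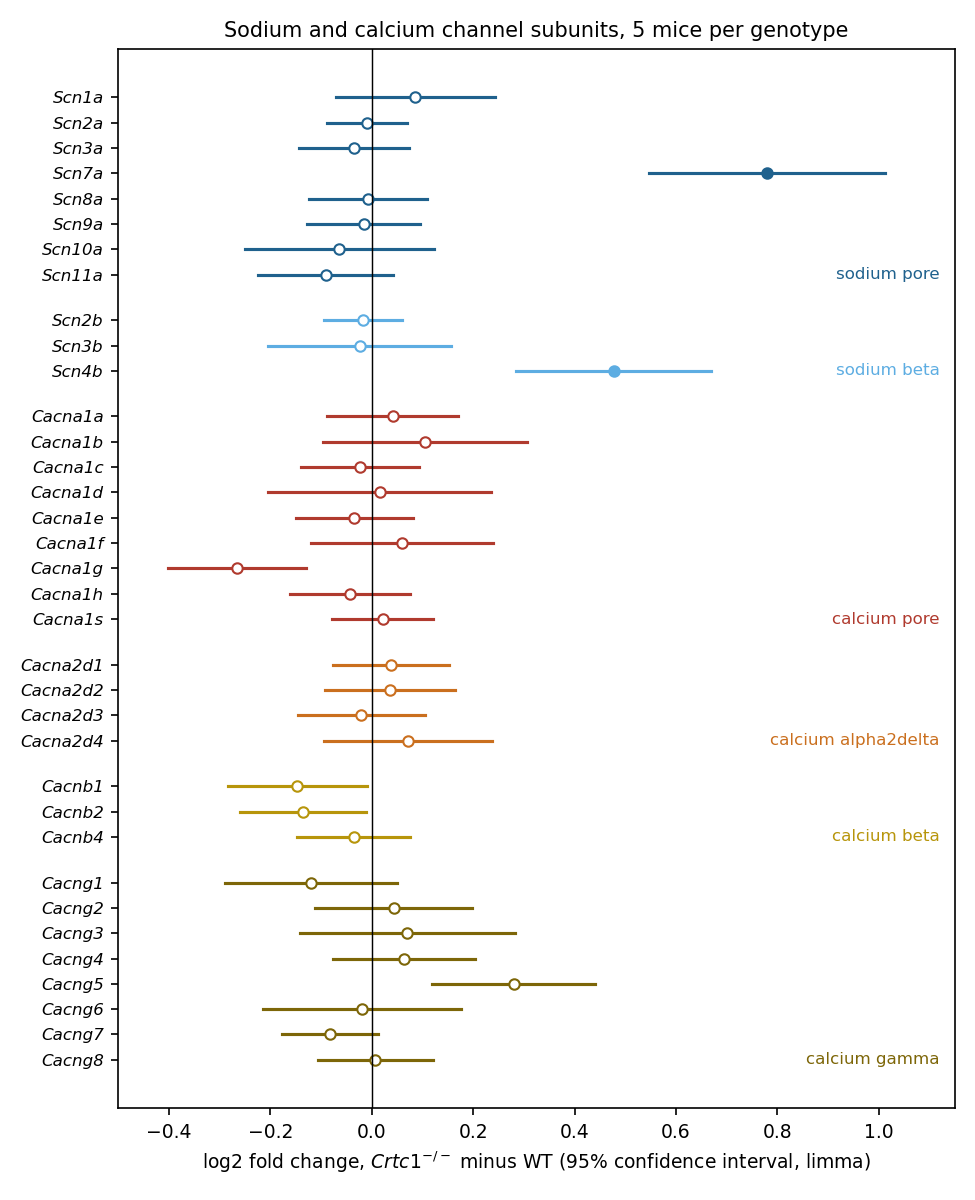
Difference of *Crtc1*-/- from WT mice on the log2 scale (x axis) for the 35 channel subunits (y axis) by family, with 95% confidence intervals from limma as lines. Filled points passed an adjusted p of 0.05, which were *Scn7a* (0.78) and *Scn4b* (0.48), and open points did not.

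The 15 accessory calcium channel subunits had a median log2 fold change of 0.0069, close to the 0.02 of the pores and the -0.0030 of all genes. None of the 15 passed, and 3 had an uncorrected p under 0.05, against 9.86% of all genes. Their log2 fold changes ran from -0.15 (*Cacnb1*) to 0.28 (*Cacng5*), and 8 of 15 were above 0 against 5 of 9 pores.

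The beta subunits bind the pore inside the cell and bring it to the membrane. The 3 of them measured here were below 0. *Cacnb1* read 8.98 ± 0.07 in WT and 8.83 ± 0.13 in *Crtc1*-/- mice (SD, n = 5 each), which came to -0.15 on the log2 scale (standard error 0.06, adjusted p = 0.461 by limma). All 4 of its probe sets were below 0, by -0.07 to -0.18. *Cacnb2* read 7.68 ± 0.09 and 7.54 ± 0.09, which came to -0.14 (adjusted p = 0.438), and both of its probe sets were below 0. The groups of both genes overlapped. *Cacnb4*, the gene mutated in the lethargic mouse, had a log2 fold change of -0.04, with its 3 probe sets between -0.04 and 0.09.

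Of the gamma subunits, *Cacng5* had the largest difference. Its protein, gamma-5, is an atypical auxiliary subunit of AMPA receptors. It read 5.96, 5.94, 6.00, 5.75 and 5.91 in WT mice and 6.22, 6.00, 6.09, 6.38 and 6.27 in *Crtc1*-/- mice, so that the groups touched at 6.00. The fold was 1.21 (95% confidence interval 1.09 to 1.36), and it did not pass (adjusted p = 0.149 from limma, exact permutation test p = 0.0159) under the reported fit or any alternative. Its dim second probe set was above 0 by 0.17. *Cacng4* and *Cacng1*, its neighbours on chromosome 11, had log2 fold changes of 0.06 and -0.12. *Cacng2* (stargazin), *Cacng3*, *Cacng4* and *Cacng8*, the typical auxiliary subunits of AMPA receptors, lay between 0.0069 and 0.07, *Cacng7* at -0.08 and *Cacng6* at -0.02, with none passing.

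The alpha2delta subunits, extracellular proteins that promote channel trafficking and bind gabapentin in the case of *Cacna2d1* and *Cacna2d2*, differed little. *Cacna2d1* read 10.85 in WT on average with a log2 fold change of 0.04 (standard error 0.05), *Cacna2d2* had 0.04 (standard error 0.06), *Cacna2d3* -0.02 (standard error 0.06) and *Cacna2d4* 0.07 (standard error 0.08). The largest of their intervals reached 0.24.

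**Figure D4:**
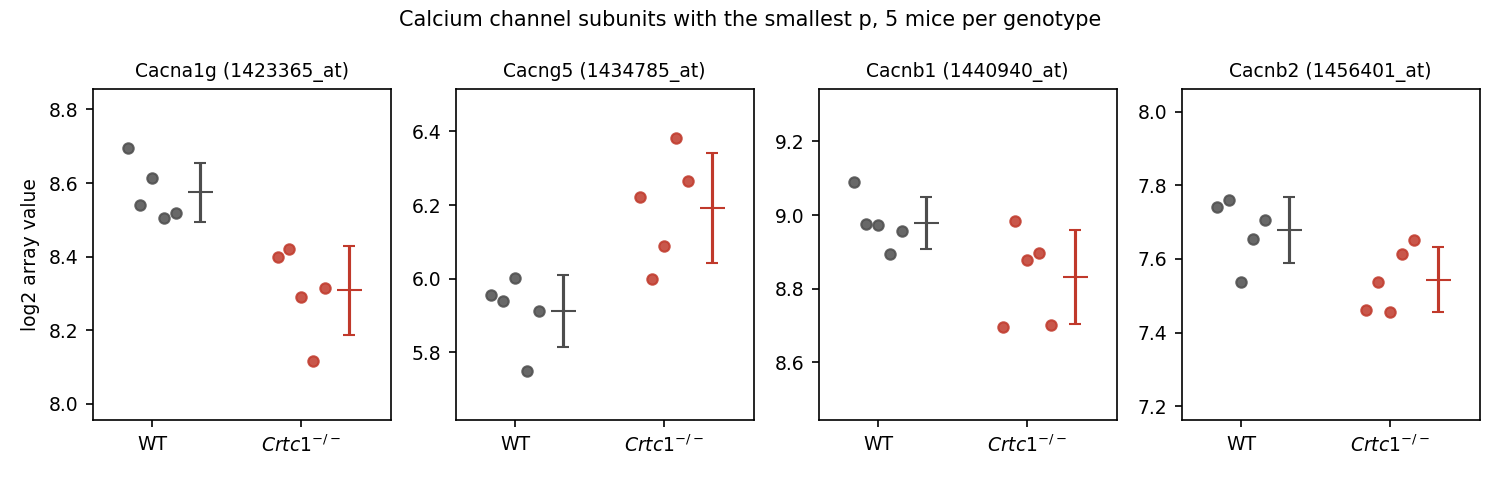
Log2 array values (y axis) of *Cacna1g*, *Cacng5*, *Cacnb1* and *Cacnb2*, the calcium channel subunits with the smallest p, in 5 WT and 5 *Crtc1*-/- mice, with a point for each mouse and bars for the mean ± SD. Each y axis spans 0.9 and starts above 0. None passed the adjusted p, and the groups are apart in *Cacna1g* alone.

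Apart from *Scn7a*, *Scn4b*, *Cacna1g* and *Cacng5*, the other 31 subunits had log2 fold changes between -0.15 and 0.10 (adjusted p from 0.438 to 0.983). Their 95% confidence intervals lay between -0.29 and 0.31, so that larger differences in either direction fall outside the interval of each. The half-width of the interval had a median of 0.13 over the 35 subunits and 0.14 over all genes. Of the 35, 8 had a brightest probe set under the median of all probe sets. No detection calls were used, so whether these dim genes were above background is not known.

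Proteins that bind or regulate the channels showed no call either. Of 27 measured partners of 32 listed, none fell and none rose in limma, and 6 had an uncorrected p under 0.05, against 9.86% of all genes. The median log2 fold change was -0.01. *Stac2*, an adaptor of L-type channels, was at -0.40 (adjusted p = 0.0956). *Rims1*, which tethers calcium channels at release sites, had -0.19 (adjusted p = 0.136), and *Fgf13*, an intracellular partner of sodium channel pores, 0.14 (adjusted p = 0.173). The groups did not overlap in 4 of the 27 (*Rims1*, *Rims2*, *Fgf13* and *Nrcam*), against 3.14% of all genes. *Ank3*, the ankyrin that holds sodium channels at the axon initial segment, differed by -0.0011 (standard error 0.05).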

How the data were processed

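Cortical RNA of 5 WT and 5 *Crtc1*-/- female mice (300 ng each per the labels) was made into biotinylated cRNA and read on GeneChip Mouse Genome arrays (Affymetrix). The table deposited by the authors holds normalized log2 values by array. The background correction, normalization and summarization are not given in the sources used here. The authors left out arrays of poor quality. Of 45101 probe sets, 64 controls were left out, 34945 name 1 gene, 932 several and 9160 none, and the brightest stood for each of 18193 genes. Values were used as deposited, without a filter. Array number limits the precision.

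Genotypes were compared in R 4.3.3 through the lmFit and eBayes functions of limma (3.58.1), with Benjamini-Hochberg correction over all genes at 0.05. The fit was tested on simulated data. Single values used two-sided exact permutation tests. The subunits, the lists of partners and cell markers and the tests were chosen with earlier results of these data known. Named in full were *Scn7a*, the neuronal sodium pores, subunits that passed or whose groups did not overlap, and the 2 of each family with the smallest p, with the other subunits given by their differences. *Cers6*, *Gnb4*, *Stac2*, *Rims1*, *Rims2*, *Fgf13*, *Nrcam*, *Ank3*, *Slc17a7*, *Nefl* and *Pde10a* were named after their values were seen. Alternatives were quantile normalization, median centring, leaving out dim or suffixed probe sets, other variance priors, weighted arrays, a replicate block, means over probe sets, all probe sets, marker covariates and leaving out each array. Motifs were searched in RefSeq promoter windows.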

Additional observations from a re-analysis of the deposited data

How the results depend on the processing

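The count of subunits that rose stayed at 2, *Scn7a* and *Scn4b*, in 12 of 22 alternatives. It was 1 (*Scn7a*) with the replicate number as a block and over all probe sets, 1 to 2 with each array left out, and 0 without moderation, with the oligodendrocyte covariate and with the hippocampal covariate. The count that fell was 1 (*Cacna1g*) with a trended and robust prior and 0 otherwise. *Scn7a* kept its direction throughout and missed the threshold at 0.78 without moderation, 0.68 with the oligodendrocyte and 0.75 with the hippocampal covariate. Its difference to *Scn1a* missed at 0.40 with the mean of all probe sets. With the hippocampal covariate the medians were -0.068 for calcium pores and -0.040 for accessory subunits. Some uncalled subunits changed sign. With the oligodendrocyte covariate these were *Cacna1b* (-0.012), *Cacna2d4* (-0.030) and *Scn11a* (0.0017), and with the hippocampal covariate *Cacna2d1* (-0.045), *Cacna2d4* (-0.062), *Scn11a* (0.0048), *Scn1a* (-0.15) and *Scn3a* (0.013). With the mean of all probe sets they were *Scn2a* (0.024), *Scn2b* (0.0074) and *Scn8a* (0.025), and with quantile normalization *Scn8a* (0.00083). With each array left out, *Scn2a* ran from -0.020 to 0.000073 and *Scn8a* from -0.039 to 0.026. *Scn8a* moved most with the hippocampal covariate, to -0.16 from -0.0073. The cause was not tested. Over all genes, 83 lower and 56 higher became 148 and 88 with the trended and robust prior, 49 and 26 without moderation, 36 and 26 with the block, 26 and 16 with the oligodendrocyte and 10 and 5 with the hippocampal covariate. The replicate block stayed an alternative, since arrays of the same number showed no pairing, as their deviations correlated at -0.26 to 0.06 over genes and 0 of 5 WT arrays correlated best with their own number.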

Other observations

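The remaining marker lists gave few differences between *Crtc1*-/- and WT cortex, and no gene of them passed in limma. The neuronal markers had a median log2 fold change of -0.01. Of the 8, *Slc17a7* and *Nefl* were lower at an uncorrected p under 0.05, where 5.53% of all genes were lower. The endothelial markers had a median of 0.04 (7 of 8 above 0), the meningeal markers 0.06 (6 of 8 above 0) and the choroid plexus markers 0.06 (6 of 8 above 0), with no uncorrected p under 0.05 in these 3 lists. The skeletal muscle markers had a median of 0.07 (5 of 7 above 0), with 1 uncorrected p under 0.05, for a marker that was higher. The striatal markers had a median of 0.0085, also with 1 uncorrected p under 0.05, for *Pde10a*, which was lower.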
